A study of Rattus norvegicus with 19 samples.

Results

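The CYP2C genes of the rat were described here in liver after a single dose of PCN (pregnenolone carbonitrile, a man-made steroid and classical ligand of the pregnane X receptor in rodents). The 6 genes were Cyp2c22, Cyp2c6v1, Cyp2c7, Cyp2c23, Cyp2c11 and Cyp2c13, taken as every probe set that the platform annotation assigns to exactly 1 of these genes. They were selected on their PCN against corn oil values in these same arrays, so that contrast is given as a description. Intervals, positions and threshold calls given for these 6 genes on that contrast belong to the description and are no test of them. Each gene was read by 1 probe set of the first array type, 6 genes of the 10412 named there, and the second array type carried none of them. The PCN group received 100 mg/kg intraperitoneally after an overnight fast and the corn oil group received the vehicle alone in the same way, with liver taken 8 h later in both. The first array type held 5 PCN and 5 corn oil arrays, labelled as biological replicates, and the second held 5 PCN and 4 corn oil arrays. The labels call the animals adult rats and give no strain or sex.

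CYP2C enzymes are cytochromes P450 of the endoplasmic reticulum of hepatocytes, which oxidise drugs, steroids, retinoids and polyunsaturated fatty acids with electrons passed on by a shared reductase. In the adult rat several of them are set by the sex-dependent pattern of growth hormone release: Cyp2c11 and Cyp2c13 are male-specific, Cyp2c12 is female-specific and Cyp2c7 is higher in females. PCN acts through the pregnane X receptor, which pairs with the retinoid X receptor on DNA and is best known for raising the CYP3A genes.

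The 6 genes lie on chromosome 1 according to RefSeq (assembly GRCr8). In that order Cyp2c13 and Cyp2c22 are neighbours with no protein-coding gene between them, and Cyp2c23 lies outside the cluster that holds the other members. RefSeq lists Cyp2c70 as a synonym of Cyp2c22. The bases before the annotated start were read for 5 of 6 genes, Cyp2c6v1 being the one not listed. They are shown for Cyp2c22, the gene with the largest difference, for its neighbour Cyp2c13, and for Cyp2c7 and Cyp2c11. Each run holds the 250 bases before the start, 5′ to 3′ on the strand of the gene, at chr1:248980768-248981017 (minus strand) for Cyp2c22, chr1:248787189-248787438 (minus strand) for Cyp2c13, chr1:247966144-247966393 (plus strand) for Cyp2c7 and chr1:246174966-246175215 (plus strand) for Cyp2c11. Capitals mark matches to 4 motifs searched on both strands: AGTTCA and AGGTCA, core letters read by nuclear receptors, CAAAGTNCA, letters close to those read by HNF4 proteins, and TATAAA, the TATA box.
Cyp2c22: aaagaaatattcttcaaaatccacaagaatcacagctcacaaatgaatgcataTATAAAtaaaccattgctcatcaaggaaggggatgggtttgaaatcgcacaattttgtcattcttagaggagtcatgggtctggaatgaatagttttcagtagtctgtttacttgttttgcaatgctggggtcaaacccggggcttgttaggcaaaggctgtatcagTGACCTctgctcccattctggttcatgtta
Cyp2c13: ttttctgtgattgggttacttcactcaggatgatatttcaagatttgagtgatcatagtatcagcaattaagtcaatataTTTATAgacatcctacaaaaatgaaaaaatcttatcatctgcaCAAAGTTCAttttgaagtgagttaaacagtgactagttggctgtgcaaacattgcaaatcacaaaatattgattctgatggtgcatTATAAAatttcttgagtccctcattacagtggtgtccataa
Cyp2c7: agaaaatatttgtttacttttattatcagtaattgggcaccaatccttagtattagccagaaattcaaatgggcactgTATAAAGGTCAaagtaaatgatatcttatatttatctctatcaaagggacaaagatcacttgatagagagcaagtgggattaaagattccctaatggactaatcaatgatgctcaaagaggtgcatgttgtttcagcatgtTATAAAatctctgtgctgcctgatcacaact
Cyp2c11: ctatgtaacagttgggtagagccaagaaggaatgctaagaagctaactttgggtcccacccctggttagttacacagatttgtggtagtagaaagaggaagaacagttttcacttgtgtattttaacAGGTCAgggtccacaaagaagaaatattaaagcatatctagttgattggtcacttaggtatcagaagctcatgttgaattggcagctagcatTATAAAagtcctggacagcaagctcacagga

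In Cyp2c22 the AGGTCA letters stood on the opposite strand, 30 to 25 bases before the start, and TATAAA stood 197 to 192 bases before it. In Cyp2c13 CAAAGTNCA matched 127 to 119 bases before the start, and that match contains the AGTTCA at 124 to 119. TATAAA stood 41 to 36 bases before the start of Cyp2c13, with a further match on the opposite strand at 170 to 165. Cyp2c7 and Cyp2c11 shared TATAAA at 31 to 26 bases before their starts. Each of them also held 1 AGGTCA, at 167 to 162 in Cyp2c7, where it shares 1 base with a further TATAAA at 172 to 167, and at 123 to 118 in Cyp2c11. No motif matched in the same window of Cyp2c23. Over 33469 rat promoter windows of the same length, AGTTCA was found in 12.2%, AGGTCA in 14.1%, CAAAGTNCA in 1.06% and TATAAA in 12.9%. A match is a description of these letters and was not tested as a binding site.

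Probe sets were compared on the log2 scale as deposited. On the first array type 361 of 11106 tested probe sets passed an adjusted p of 0.05 (limma, Benjamini-Hochberg), which is 3.25%, and groups did not overlap for 6.04% of them. With 1 array left out at a time the count of 361 ranged between 154 and 447, and the arrays behind that range are named in the closing section. The median log2 difference over all tested probe sets was 5.54e-05, so differences are given against a centre close to 0. The median value of an array ranged from 7.72 to 7.82, and arrays correlated pairwise at 0.972 to 0.996. Corn oil replicate 2 and PCN replicate 2 stood farthest from the other arrays of their groups, with a mean distance of 0.218 and 0.210 log2 units against 0.153 to 0.195 for the other arrays.

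Read by the brightest tested probe set of each gene, 0 markers of 6 liver and blood cell classes passed the test (limma). A dimmer probe set of the Kupffer cell marker Cd163 on the second array type did pass. At an unadjusted p below 0.05, which held for 17.7% of all probe sets tested in the first table and 27.3% in the second, there were 2 of 9 hepatocyte, 1 of 8 Kupffer, 2 of 9 stellate, 0 of 8 endothelial, 0 of 4 cholangiocyte and 4 of 5 blood cell markers. Hepatocyte markers averaged 13.77 to 13.97 in PCN livers and 13.65 to 14.01 in corn oil livers, so the tissue label holds on its own markers. Of the 4 blood cell markers, Hbb (-0.39 log2 units), Alas2 (-0.59) and Cd3e (-0.15, second array type) were lower in PCN livers and S100a9 (0.58) was higher. In whole liver RNA, fewer cells of a type and less RNA per cell cannot be told apart.

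Cyp2c22 was higher in PCN livers by 1.48 log2 units, 2.80-fold, while Cyp2c6v1, Cyp2c7 and Cyp2c23 differed between groups by less than 0.10 log2 units. Cyp2c11 lay between them at 0.42 log2 units with overlapping groups, and Cyp2c13 was too dim to enter the test. Of the 6 genes, 5 passed the filter on low values. Of those 5, 1 passed the adjusted threshold, Cyp2c22, against 3.25% of all tested probe sets. These counts come from the contrast the genes were selected on, and nothing is read from them. Whether the difference of Cyp2c22 exceeds that of another CYP2C gene was not tested.

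Cyp2c22 is known in the rat as an enzyme that oxidises retinoic acid, and its mouse counterpart Cyp2c70 makes muricholic acids from chenodeoxycholic acid. Its values were 13.90, 13.13, 13.44, 14.10 and 12.85 in PCN replicates 1 to 5, against 12.63, 12.17, 11.72, 11.87 and 11.62 in corn oil replicates 1 to 5. Groups did not overlap, in either direction, for 6.04% of all tested probe sets. For Cyp2c22 all PCN arrays lay above all corn oil arrays, with PCN replicates 1 and 4 highest and PCN replicate 5 closest to corn oil replicate 1. The mean was 13.49 ± 0.52 in PCN livers and 12.0 ± 0.41 in corn oil livers (SD, n = 5 each), a log2 difference of 1.48 with an SE of 0.25 and a 95% interval of 0.95 to 2.02. In absolute size this difference stood at position 27 among the 11106 tested probe sets.

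Cyp2c6v1 encodes a constitutive hepatic enzyme, known to respond to phenobarbital. It had 13.62, 13.69, 13.56, 13.53 and 13.66 in PCN replicates 1 to 5, against 13.56, 13.48, 13.47, 13.62 and 13.60 in corn oil replicates 1 to 5. The groups overlapped, with the lowest PCN array inside the corn oil range. The means were 13.61 ± 0.066 in PCN livers and 13.55 ± 0.068 in corn oil livers (SD, n = 5 each), a log2 difference of 0.07 (SE 0.053, 95% interval -0.05 to 0.19).

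Cyp2c7 encodes a retinoic acid hydroxylase that is higher in the female rat. Its values were 14.32, 14.38, 14.34, 14.26 and 14.47 in PCN replicates 1 to 5, against 14.28, 14.19, 14.18, 14.33 and 14.35 in corn oil replicates 1 to 5. The groups overlapped, with PCN replicate 5 highest. The log2 difference was 0.09 (SE 0.052, 95% interval -0.02 to 0.20). Both intervals included 0.

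Cyp2c23 encodes the main arachidonic acid epoxygenase of the rat kidney, also present in liver. It had 13.01, 12.74, 13.07, 12.88 and 13.14 in PCN replicates 1 to 5, against 13.07, 12.94, 12.89, 12.90 and 13.02 in corn oil replicates 1 to 5. The corn oil range fell inside the PCN range. The log2 difference was 0.01 (SE 0.081, 95% interval -0.17 to 0.18).

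Cyp2c11 encodes the steroid hydroxylase that dominates in the adult male rat. Its values were 7.97, 8.15, 7.62, 7.77 and 7.63 in PCN replicates 1 to 5, against 7.31, 7.53, 7.08, 7.63 and 7.50 in corn oil replicates 1 to 5. PCN replicates 1, 2 and 4 lay above every corn oil array, and the groups met at corn oil replicate 4. The means were 7.83 ± 0.23 in PCN livers and 7.41 ± 0.22 in corn oil livers (SD, n = 5 each), a log2 difference of 0.42 (SE 0.13, 95% interval 0.14 to 0.70). The interval is that of a single probe set with no adjustment, and the probe set did not pass the adjusted threshold. In mean level Cyp2c11 stood above 46.9% of all probe sets, against 99.6% for the female-specific Cyp2c12.

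Cyp2c13, the other male-specific member, had 6.18, 6.01, 5.98, 6.34 and 6.09 in PCN replicates 1 to 5, against 5.93, 6.16, 5.92, 5.99 and 5.95 in corn oil replicates 1 to 5. Its mean lay below the filter value of 6.67, and the groups overlapped, with corn oil replicates 2 and 4 above the lowest PCN array. Fitted without the filter, the log2 difference was 0.13 (SE 0.077, 95% interval -0.04 to 0.29). The letters of the probes were not used here, so the specificity of each probe set among these similar genes was not checked.

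**Figure D1:**
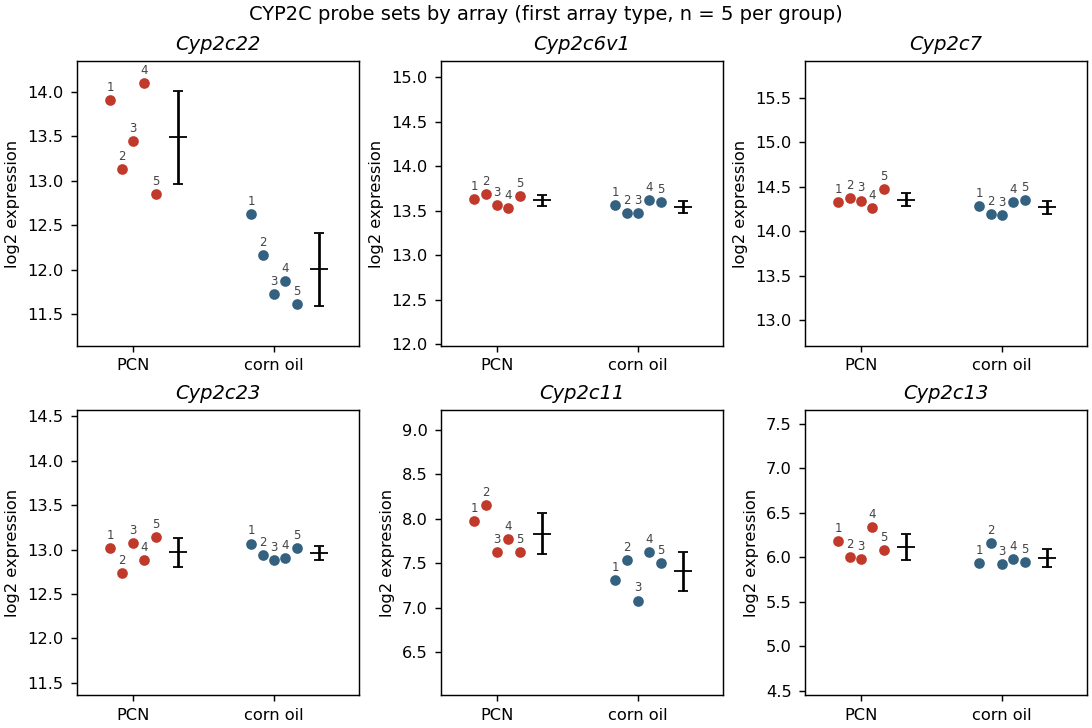
Log2 expression of each CYP2C gene in every array of the first type, PCN left and corn oil right, with replicate numbers beside the points and the mean ± SD as bars. Every panel spans the same number of log2 units, so that the gap between groups in Cyp2c22 can be set against the overlapping points of Cyp2c6v1 and Cyp2c7.

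**Figure D2:**
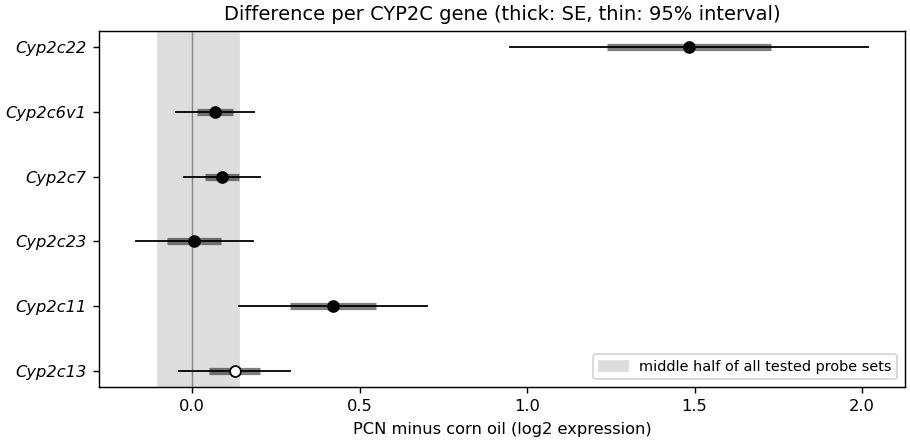
PCN minus corn oil for each CYP2C gene in log2 units, with SE as thick bars and the 95% interval as thin bars. The shaded band runs from the lower to the upper quartile of all tested probe sets (-0.10 to 0.14), Cyp2c22 stands at 1.48, and the open point marks Cyp2c13, which was fitted without the filter.

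The spread between animals of the same group leaves the treatment difference out. The pooled SD of Cyp2c22 within groups was 0.467 log2 units, above 95.6% of the 1111 tested probe sets in the same brightness class (the tested probe sets were cut into 10 equal classes), whose median was 0.160. Against the 100 tested probe sets nearest to it in mean level, a comparison added after the data were seen, it was above 94%. Cyp2c22 varied in both groups, over a range of 1.25 log2 units in PCN livers and 1.01 in corn oil livers.

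In the same class Cyp2c6v1 had a pooled SD of 0.0667, above 4.86% of probe sets, and Cyp2c7 one of 0.0767, above 8.01%. Spread fell with brightness inside that class, however. Against the 100 probe sets nearest in mean level Cyp2c6v1 was above 15% (their median SD was 0.113) and Cyp2c7 above 46% (median SD 0.0801), so the SD of Cyp2c7 was ordinary for its brightness. Whether such bright probe sets understate differences was not tested. Cyp2c23 had 0.126, above 31.5% of its class and 42% of the nearest probe sets. Cyp2c11, in a dimmer class, had 0.224, above 75.8% of its class and 78% of the nearest probe sets. These percentages are descriptions and carry no test.

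**Figure D3:**
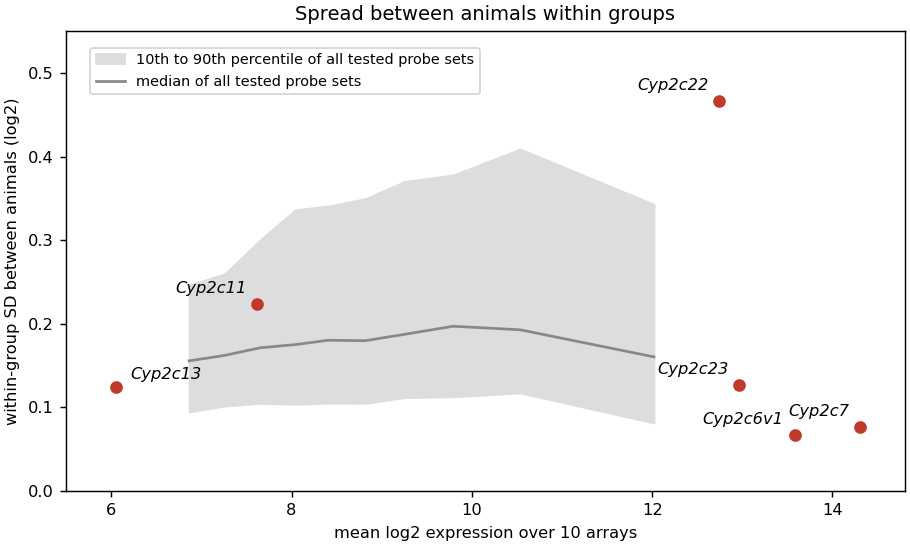
Pooled SD between animals of the same group (log2 units) against the mean log2 expression over 10 arrays for the CYP2C genes (points), with the median and the 10th to 90th percentile of all tested probe sets by brightness class. The band ends at the median brightness of the top class, to which Cyp2c22 (0.467, above the band), Cyp2c23 (0.126, within it), and Cyp2c6v1 and Cyp2c7 (0.0667 and 0.0767, just under it) belong.

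Whether the genes moved together from animal to animal was tested on deviations from the group means, which leave the treatment difference out. Over the 15 pairs of CYP2C genes and 10 arrays, 0 pairs passed an adjusted p of 0.05 in exact permutation tests within groups, and 1 pair had an unadjusted p below 0.05. That pair was Cyp2c6v1 and Cyp2c7, with r = 0.86 (two-sided exact permutation p = 0.00674, adjusted p = 0.101) and Spearman's rho = 0.87 (exact permutation p = 0.0075, adjusted p = 0.113). Without the pair of arrays farthest from the median of Cyp2c6v1, picked with the treatment difference left in, the r was 0.89. By r with Cyp2c6v1, Cyp2c7 stood at position 51 of 11105 tested probe sets, so other probe sets followed Cyp2c6v1 more closely. All arrays share their scaling. The r was 0.837 with a common median and 0.836 after quantile normalization.

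The most negative correlation was that of Cyp2c22 with Cyp2c7, with r = -0.59 (exact permutation p = 0.0991, adjusted p = 0.435) and rho = -0.65 (exact permutation p = 0.0682, adjusted p = 0.511). The pair of arrays farthest from the median of Cyp2c22 was PCN replicates 1 and 4. It was picked with the treatment difference left in, so it need not hold the arrays farthest from their group means. Without that pair the r of Cyp2c22 with Cyp2c7 was -0.34. With its neighbour Cyp2c13 the r was 0.54 (exact permutation p = 0.153, adjusted p = 0.435) and rho was 0.36 (exact permutation p = 0.353, adjusted p = 0.702). That r was -0.04 without the pair of farthest arrays. With Cyp2c11 and Cyp2c23 the r of Cyp2c22 was 0.05 and 0.00.

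**Figure D4:**
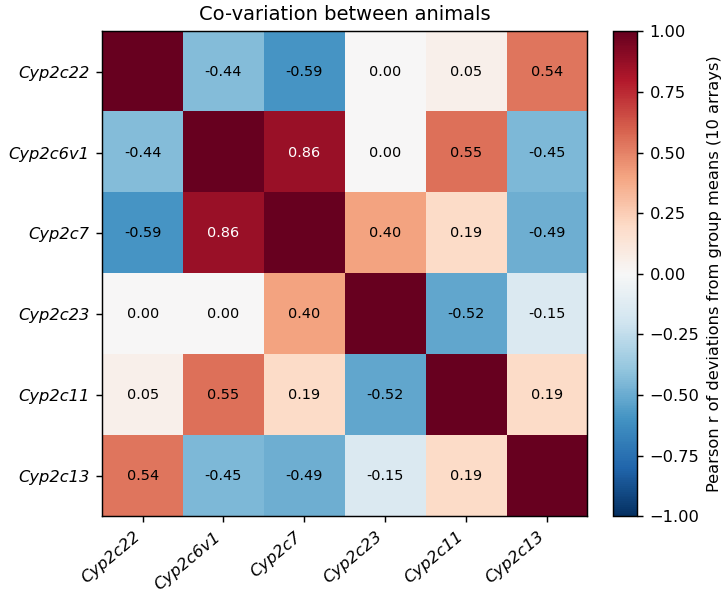
Pearson r between CYP2C genes of the deviations of 10 arrays from their group means, from blue (negative) to red (positive). Cyp2c6v1 and Cyp2c7 share the highest value at 0.86, and no pair passed the adjusted threshold.

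Among 9381 probe sets with a single gene other than these members, the values over the 10 arrays that were most like those of Cyp2c22 belonged to Manba (r = 0.97), a lysosomal mannosidase, Gpd1l1 (r = 0.97), Stk40 (r = 0.97), Hnrnph1 (r = 0.96), an RNA-binding splicing factor, and Mal2 (r = 0.96), a membrane protein of hepatocyte transcytosis. Part of such an r is the group difference that Cyp2c22 was selected on. Within groups the r of these genes with Cyp2c22 ranged from 0.84 to 0.91. The genes were picked on the r over the same arrays, which includes that within-group part, so it is no separate support. Their own log2 differences were 1.06 for Manba, 1.99 for Gpd1l1, 0.32 for Stk40, 0.67 for Hnrnph1 and 1.32 for Mal2. The most opposite were Jcad (r = -0.96), Sult1c2a (r = -0.95), a sulfotransferase, and Cdo1 (r = -0.95), the cysteine dioxygenase of taurine synthesis. For Cyp2c6v1 the closest were Mbnl2 (r = 0.90) and Ggt5 (r = 0.89), and for Cyp2c7 they were Hsd17b4 (r = 0.94), a peroxisomal enzyme of fatty acid oxidation, and again Mbnl2 (r = 0.93). For Cyp2c23 they were Pccb (r = 0.88) and Lrrc8a (r = 0.85), for Cyp2c11 Fndc5 (r = 0.91) and Nfe2l1 (r = 0.89), and for Cyp2c13 C1galt1 (r = 0.96) and Ppp1r12a (r = 0.94).

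Of 6 further CYP2C genes listed, 1 was measured and 0 passed the test (limma), with 0 at an unadjusted p below 0.05. This was Cyp2c12, the female-specific steroid sulfate hydroxylase, at 13.81 ± 0.067 in PCN livers and 13.71 ± 0.13 in corn oil livers (SD, n = 5 each), a log2 difference of 0.10 (SE 0.065, limma adjusted p = 0.480). Among other CYP2 genes 1 of 11 measured was lower and 0 were higher, with a median log2 difference of -0.07. The gene that was lower was Cyp2f4, at a log2 difference of -0.37 (SE 0.086, limma adjusted p = 0.0377). Cyp2f4 missed the threshold whichever single array was left out (limma adjusted p from 0.0501 to 0.0930).

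Of 8 genes for P450 electron donors, membrane partners and heme synthesis or breakdown, 2 were higher and none was lower. All were read on the first array type, where 3.25% of tested probe sets passed. The list median was 0.19 log2 units. Alas1, which catalyses the committed step of heme production, was 3.33-fold higher in PCN livers at 13.42 ± 0.18 against 11.68 ± 0.31 in corn oil livers (SD, n = 5 each, limma adjusted p = 0.000119). Por, the reductase that passes electrons to P450 enzymes, was 2.42-fold higher at 12.68 ± 0.19 in PCN livers against 11.41 ± 0.29 in corn oil livers (SD, n = 5 each, limma adjusted p = 0.000751).

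Genes known to answer to the pregnane X receptor were higher at 7 of 12 measured members and lower at none. This list, like the others, was chosen with earlier results of these data known, so its count is no separate support for a receptor response. All were read on the first array type, where 3.25% of tested probe sets passed. The list median was 0.73 log2 units, with a range of 0.09 to 1.70. Ces2c, a carboxylesterase, was higher by 1.70 log2 units (limma adjusted p = 0.00261). Cyp3a18, a steroid and drug hydroxylase, was higher by 1.31 (limma adjusted p = 0.00384), and Abcb1a, a drug efflux pump, by 1.03 (limma adjusted p = 0.00543). The 1.48 log2 units of Cyp2c22 lie inside the range of this list. They also lie inside that of the P450 partner list above (-0.40 to 1.74) and the retinoid list below (-0.36 to 2.45). Whether the receptor raised Cyp2c22 was not tested.

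Regulators of CYP2C genes, which include nuclear receptors, hepatocyte transcription factors and the growth hormone pathway, were measured at 23 of 25 genes, 3 of them on the second array type. None was higher and 1 was lower, with a list median of 0.11 log2 units and a range of -1.30 to 0.77. At an unadjusted p below 0.05 (limma) there were 6 of 23. That held for 17.7% of all probe sets tested in the first table and 27.3% in the second. The gene that was lower was Ppargc1a, a coactivator of the fasting response, read on the second array type. There 5.4% of tested probe sets passed, against 3.25% on the first array type. Ppargc1a had a log2 difference of -0.58 (limma adjusted p = 0.0285) and missed the threshold without corn oil replicate 3, 4 or 5 or PCN replicate 1, 3 or 4 (adjusted p up to 0.0930). Nr1i2, the pregnane X receptor itself, differed by 0.11 log2 units (limma adjusted p = 0.815), and Nr1i3, its close relative CAR, by 0.33 (limma adjusted p = 0.546).

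Since Cyp2c22 and Cyp2c7 act on retinoids, genes of retinoid handling were counted as well: 2 of 16 measured were higher, none was lower, and the list median was -0.08 log2 units. Cyp26a1, the main retinoic acid hydroxylase, was 5.46-fold higher in PCN livers at 9.56 ± 0.36 against 7.11 ± 0.53 in corn oil livers (SD, n = 5 each, limma adjusted p = 0.000379). Rdh10, which oxidises retinol to retinal, was 2.04-fold higher (limma adjusted p = 0.00981). A list of CYP2J, CYP4 and epoxide hydrolase genes, set beside Cyp2c23, had 0 of 11 measured genes past the threshold (limma). Of these, 3 had an unadjusted p below 0.05 (against 17.7% of all probe sets tested in the first table and 27.3% in the second). The list median was -0.18 log2 units. The smallest p was that of Cyp4f6, at -0.32 log2 units (limma adjusted p = 0.171).

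**Figure D5:**
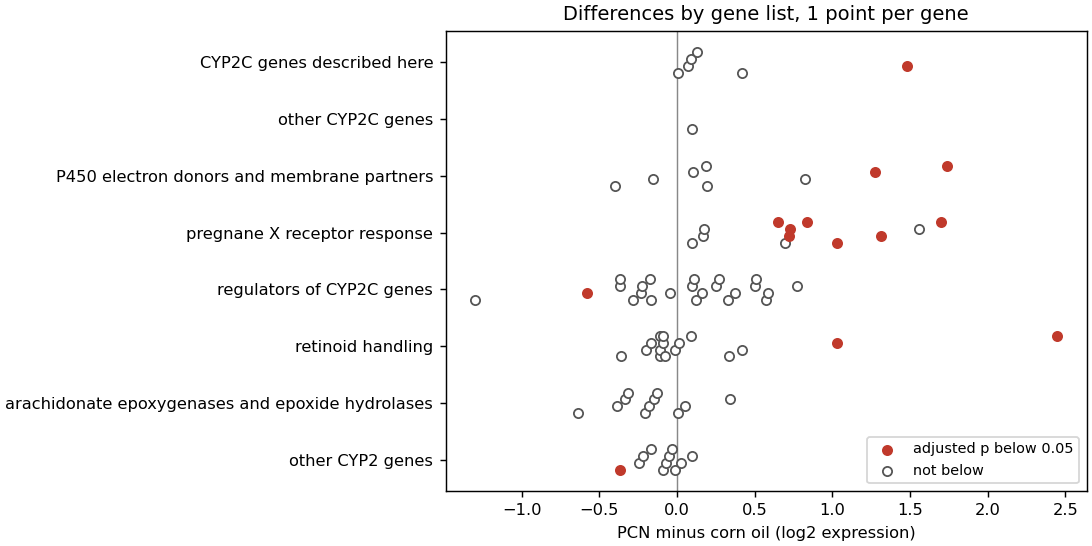
PCN minus corn oil in log2 units for the CYP2C genes and 7 gene lists, 1 point per gene read by its brightest tested probe set, filled where the adjusted p was below 0.05. The pregnane X receptor list lies at or above 0.09 throughout. Cyp2c22 is the filled point of the top line at 1.48, and Cyp2c13 of that line was fitted without the filter. The list labelled arachidonate epoxygenases and epoxide hydrolases also holds CYP4 genes. The list labelled P450 electron donors and membrane partners also holds the heme genes Alas1 and Hmox1.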

How the data were processed

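Liver RNA was measured on 2 Affymetrix array types. The authors deposited 1 log2 expression value per probe set and array. MAS5 is named in the submitters' processing notes, with no version, and the summarization and normalization behind the values are not given in the sources used here. The base was taken to be 2 from the range of the values (highest 15.2). Each table was analysed alone, as deposited. Of 15923 and 15333 probe sets, 12789 and 7570 carry a single gene, 312 and 100 several, and 2822 and 7663 none; current names came through RefSeq GRCr8. The 57 control probe sets and those with a mean below the 30th percentile were left out (11106 and 10693 tested).

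PCN was compared with corn oil by limma 3.58.1 in R 4.3.3, with treatment alone and a variance trend, two-sided, with Benjamini-Hochberg adjustment at 0.05. Co-variation used exact permutation within groups (14400 arrangements, smallest possible p = 6.94e-05). The fit was tested on simulated data with known changes. Array number limits precision. Replicates are labelled biological, and the limma p-values set the group difference against the spread between these samples within groups.

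The members and lists were chosen with earlier results of these data known, and the sex-dependent genes were added after values were seen. In each list a gene was read by its brightest tested probe set, on the first array type where possible, and up to 3 passing genes with the largest change were named, or the 1 with the smallest p where none passed. Nr1i2 and Nr1i3 were named beyond this rule, after their values were seen. Likeness named the 5 highest and 3 lowest r for Cyp2c22 and the 2 highest for each other member. The alternatives were other filters, scalings, pseudocounts of 16 and 64 on linear values, variance models, a replicate block and each array left out.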

Additional observations from a re-analysis of the deposited data

Results flagged for a closer look

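Cyp2c13 in corn oil replicate 2 stood apart from the other corn oil arrays: its log2 value was 6.16, and the gap to the next corn oil array was 0.728 of the range of the group, against a critical value of 0.71. Chance gives such a gap in about 1 of 20 groups, and 12 groups were examined (6 genes in PCN and in corn oil livers). The same array stood farthest from the other arrays of its group over all probe sets (0.218 log2 units). Without it the log2 difference of Cyp2c22 was 1.52.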

How the results depend on the processing

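Cyp2c22 was the 1 CYP2C gene past the threshold under all 20 alternatives on the first array type, with a log2 difference of 1.33 to 1.64. Since it was selected on this contrast, the calls are a description of the settings and no independent support. Over the same alternatives the log2 difference was 0.03 to 0.09 for Cyp2c6v1, 0.05 to 0.11 for Cyp2c7 and -0.04 to 0.06 for Cyp2c23. Cyp2c11 had 0.32 to 0.47 over 19 alternatives and was filtered out at the 50th percentile, and Cyp2c13 has a value without the filter alone. The r of Cyp2c6v1 with Cyp2c7 was 0.818 to 0.914 over 13 alternatives (exact permutation, adjusted p 0.0573 to 0.427), and 0 pairs passed under any of them.

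The counts over all probe sets moved more, and the cause was not tested. On the first array type 361 probe sets passed (70.9% higher). With one array left out the count was 154 to 447, moving by over 1.5 times without corn oil replicate 3 (203), 4 (154) or 5 (206) or PCN replicate 1 (177), 3 (187) or 4 (178). The share higher was 57.7% after quantile normalization and 59.3% after trimmed mean scaling. On the second array type 577 passed (69.7% higher), against 875 after trimmed mean scaling (45.4% higher), and the share higher was 87.8% with a common median. With one array left out it was 84 to 1479, moving by over 1.5 times without corn oil replicate 1 (194), 3 (275) or 4 (84) or PCN replicate 1 (175), 2 (233), 3 (206), 4 (230) or 5 (1479).

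Same-numbered samples deviated from their group means with correlations of -0.301 to 0.284. The labels do not say whether the numbers pair the samples, and these correlations cannot settle it. With a replicate block 239 probe sets passed on the first array type and 203 (80.3% higher) on the second. Cyp2f4 missed the threshold with a common median and with the replicate block (limma adjusted p up to 0.101), and Cyp4f6 passed after quantile normalization (limma adjusted p = 0.0279). Single arrays left out moved the count of regulators between 0 and 2, and gave at most 1 Kupffer, 1 stellate and 2 blood cell markers. No CYP2C value was possible on the second array type, which carries no such probe set.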

Other observations

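Because several CYP2C genes are sex-dependent in the adult rat and the labels give no sex, the levels of other sex-dependent genes on the first array type are given as values, from a list added after the data were seen. Xist, which is transcribed from the inactive X chromosome of female cells, was between 11.6 and 12.1 in PCN livers and between 11.7 and 12.8 in corn oil livers. Sry, a gene of the Y chromosome, was below the filter value of 6.67 in both groups, at 5.25 to 5.41 in PCN livers and 5.26 to 5.64 in corn oil livers.

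The female-specific Cyp2c12 was at 13.7 to 13.9 in PCN livers and 13.5 to 13.8 in corn oil livers. A1bg, known to be higher in female rat liver, had 11.5 to 13.3 in PCN livers and 12.6 to 13.8 in corn oil livers, and Prlr, the prolactin receptor, had 11.5 to 12.4 in PCN livers and 12.1 to 12.6 in corn oil livers. Sult2a2, a hydroxysteroid sulfotransferase, was at 11.4 to 12.1 in PCN livers and 7.58 to 11.9 in corn oil livers. The male-predominant Cyp2a2, Hsd3b5, Mup5 and Obp3 had means below the filter value. Beside these, Cyp2c13 lay below the filter value and Cyp2c11 above it (means 7.83 in PCN livers and 7.41 in corn oil livers). No sex is assigned to the animals here.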
